A study of Mus musculus with 12 samples.

Results

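Common distal H3K27ac regions are stretches of the genome that carried an H3K27ac peak in immature cortical interneurons (CINs) and in the remaining cortical cells (non-CINs) alike, and that lie far from gene starts. They were selected on the measured peak lists: peaks 500 bp or less apart were joined within each of the 4 H3K27ac lists, the stretches covered by all 4 lists were kept as common regions, and of these the regions shorter than 3000 bp with a centre 10 kb or more from every protein-coding transcription start site (TSS) were taken. This left 14188 of 27746 common regions. Of the rest, 13210 were centred within 10 kb of a TSS, 344 were distal but 3000 bp or longer, and 4 lay on contigs without an annotated TSS. Cells came from the cortex of Gad67-GFP heterozygote mouse pups at postnatal day 2, a line in which GFP marks GABAergic neurons, and were sorted into GFP+ CINs and GFP- non-CINs. The GFP- fraction is not 1 cell type: it holds glutamatergic projection neurons together with glia and other cortical cells. The labels give all animals the same genotype and name no experimental treatment, so the sorted population is the contrast. Each population has 2 biological replicates per mark, and each library was made by native ChIP on tissue pooled from several litters.

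H3K27ac is a histone acetylation laid down at active promoters and enhancers, while H3K27me3 is deposited by Polycomb repressive complex and marks silenced or poised chromatin. Enhancers far from genes are the regulatory elements that most often differ between cell types, whereas promoters of widely used genes are acetylated in most cells. CINs are born in the ganglionic eminences under DLX and NKX2-1 control and migrate into the cortex, whereas projection neurons and astrocytes of the cortex arise from pallial radial glia.

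The Gad1 and Gad2 promoters separated the populations, whereas markers of projection neurons gave a mixed picture. Promoters of Gad1 and Gad2, which encode the GABA-synthesising enzymes, had peaks at percentiles 84.5 and 72.2 and at 91.7 and 82.5 of the CIN lists (replicates 1 and 2), whereas Gad1 had no peak in either non-CIN list and Gad2 had a peak only in non-CIN replicate 2, at percentile 28.9. Slc1a3, a glial glutamate transporter, had promoter peaks in all 4 lists, at percentiles 83.7 and 90.8 in CINs against 93.4 and 98.7 in non-CINs. Glial promoters were thus marked in the GFP+ lists too. The projection neuron marker Emx1 was marked at percentiles 63.1 and 51.7 in non-CINs and at 23.5 in CIN replicate 1 alone, whereas Neurod6, another projection neuron marker, ran the other way, at 39.5 and 30.8 in CINs against no peak and 17.1 in non-CINs. Tbr1 had a promoter peak only in non-CIN replicate 2, at 1.7, and Neurod2 and Lhx6 had none in any list. Because the populations are mixtures, a mark in fewer cells and a weaker mark in each cell cannot be told apart.

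For each region, the level was taken as a percentile: the share of all peaks in the same list whose fold enrichment over input was at or below that of the strongest peak overlapping the region. A region was called CIN-biased where it stood at least 20 percentile points higher in CINs than in non-CINs in replicate 1 and again in replicate 2, and non-CIN-biased in the reverse case. The groups described here are therefore chosen by these same values, and their H3K27ac levels are a description with no test.

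The sequences below are the 200 bp around the centre of 2 of the 3 regions with the clearest CIN bias, the 3 with the clearest non-CIN bias and the 3 with the highest level in all 4 lists. They are shown to let the base composition and motif content of the groups be compared directly. Bases are from the RefSeq sequence of GRCm38 (mm10), plus strand, 5′ to 3′. The window runs past both ends of a region shorter than 200 bp, as at Grm3. Capitals mark letters that match any of 12 short motifs on either strand. The CIN-biased regions are named by their nearest protein-coding genes, Bbs10 (a chaperonin-like protein of cilia) and Cdca7 (a cell cycle-associated protein).
Bbs10 region, chr10:111248458-111248657: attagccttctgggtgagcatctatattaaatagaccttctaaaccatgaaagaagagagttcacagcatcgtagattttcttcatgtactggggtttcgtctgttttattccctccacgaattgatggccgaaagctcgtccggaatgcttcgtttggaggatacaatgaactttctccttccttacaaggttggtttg
Cdca7 region, chr2:72427009-72427208: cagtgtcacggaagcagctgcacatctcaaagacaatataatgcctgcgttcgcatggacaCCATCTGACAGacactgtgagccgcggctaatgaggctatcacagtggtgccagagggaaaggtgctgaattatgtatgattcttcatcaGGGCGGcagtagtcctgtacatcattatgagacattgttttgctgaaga

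In the Cdca7 sequence the first capitals hold 2 overlapping matches, the E-box CAGATGG read on the minus strand and the MEIS motif CTGTCA read on the minus strand, and GGGCGG (SP/KLF) follows. The Bbs10 sequence holds none of the 12 motifs. The non-CIN-biased regions are nearest to Grm3 (a metabotropic glutamate receptor), Xylt1 (the xylosyltransferase that starts glycosaminoglycan chains on proteoglycans) and Rgma (a repulsive guidance molecule).
Grm3 region, chr5:9555726-9555925: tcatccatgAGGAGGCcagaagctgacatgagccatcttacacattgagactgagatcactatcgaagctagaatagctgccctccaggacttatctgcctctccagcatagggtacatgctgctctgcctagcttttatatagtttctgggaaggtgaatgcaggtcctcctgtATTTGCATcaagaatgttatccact
Xylt1 region, chr7:117464938-117465137: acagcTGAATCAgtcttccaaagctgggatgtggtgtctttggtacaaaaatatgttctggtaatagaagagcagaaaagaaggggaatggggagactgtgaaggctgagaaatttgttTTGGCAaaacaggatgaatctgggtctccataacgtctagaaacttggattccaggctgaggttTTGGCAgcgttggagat
Rgma region, chr7:73223986-73224185: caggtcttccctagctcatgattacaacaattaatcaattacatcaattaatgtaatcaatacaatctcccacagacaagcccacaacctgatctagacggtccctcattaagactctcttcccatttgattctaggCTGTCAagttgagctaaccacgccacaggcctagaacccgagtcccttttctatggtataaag

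The Grm3 sequence holds AGGNGGC (CTCF core) and the POU octamer ATGCAAAT on the minus strand, the Xylt1 sequence holds TGANTCA (AP-1) and TTGGCA (NFI) at 2 positions, and the Rgma sequence holds CTGTCA. The regions strongest in all lists are nearest to Prrc2b (a proline-rich RNA-associated protein), Anp32e (a histone chaperone) and Ccnl1 (a cyclin of splicing).
Prrc2b region, chr2:32137824-32138023: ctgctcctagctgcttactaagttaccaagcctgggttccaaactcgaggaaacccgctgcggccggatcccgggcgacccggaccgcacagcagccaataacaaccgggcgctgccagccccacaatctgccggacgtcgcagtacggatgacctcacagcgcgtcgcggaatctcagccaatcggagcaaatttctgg
Anp32e region, chr3:95951039-95951238: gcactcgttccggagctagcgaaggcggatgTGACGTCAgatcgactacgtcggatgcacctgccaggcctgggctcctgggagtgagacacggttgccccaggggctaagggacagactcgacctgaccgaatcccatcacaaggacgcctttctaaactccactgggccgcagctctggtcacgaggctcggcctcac
Ccnl1 region, chr3:65975008-65975207: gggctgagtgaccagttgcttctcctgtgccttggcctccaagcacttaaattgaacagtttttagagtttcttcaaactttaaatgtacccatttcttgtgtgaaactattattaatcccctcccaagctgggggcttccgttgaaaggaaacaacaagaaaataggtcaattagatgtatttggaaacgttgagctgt

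The Anp32e sequence holds the cyclic AMP response element TGACGTCA and the other 2 hold none of the motifs. The ratio of observed to expected CpG over the whole region was 0.71 at Prrc2b, 0.73 at Anp32e and 0.44 at Ccnl1, whereas over all common distal regions its median was 0.24.

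Most regions lay in introns or between genes. Centres fell in introns of protein-coding genes in 7816 (55.1%), between genes in 6043 (42.6%) and in exons in 329 (2.32%). The median region was 616 bp long and 55.2 kb from the nearest protein-coding TSS, and the farthest was 2354 kb away. GC content had a median of 47.2% against 56.1% in common regions within 10 kb of a TSS, and the CpG ratio had a median of 0.24 against 0.64 there. The label distal holds for protein-coding starts of the GENCODE basic annotation. With those of the full GENCODE annotation 13509 common regions met the limits, and with RefSeq mRNA starts 13361. The label does not hold for every transcript: 1732 regions (12.2%) were within 1 kb of a TSS of any biotype in GENCODE or RefSeq. This share was higher at higher H3K27ac levels, from 8.95% of the 4638 regions with a mean percentile of 25 to 50 to 31.0% of the 252 regions with a mean percentile of 95 or more, in which the median CpG ratio was 0.31. Of the 6 regions highest in all lists, the region 39.4 kb upstream of Eif4g2, a translation initiation factor, was 112 bp from the TSS of the non-coding gene 1700012D14Rik.

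Common distal regions were of moderate strength. Their median percentile was 63.5 and 53.6 in CIN replicates 1 and 2 and 66.0 and 58.4 in non-CINs, against 84.0, 78.4, 83.6 and 77.2 for regions within 10 kb of a TSS. CIN-biased regions numbered 833, or 5.87% of the common distal regions (95% Wilson interval 5.5 to 6.27), against 4.20% of all common regions. Non-CIN-biased regions numbered 1262, or 8.89% (8.44 to 9.37), against 6.14% of all common regions. Within 10 kb of a TSS, where levels were higher, the shares were 2.51% and 3.32%, and the part of level in this was not tested. Intervals cover counting error over regions only, and 35 distal regions that fell in the gap between 2 joined peaks of some list had no percentile. With no margin required, both CIN percentiles lay above both non-CIN percentiles at 2364 regions (16.7%, against 17.9% of all common regions), and both non-CIN percentiles lay above both CIN percentiles at 4556 (32.1%, against 26.4%). The balance between the directions depended on the scale. When levels were ranked among the common regions of each list in place of all its peaks, 1164 distal regions were CIN-biased and 1067 non-CIN-biased, so that the CIN-biased share of biased regions went from 39.8% to 52.2%. The balance turned near a TSS too, with 658 CIN-biased (4.98%) and 449 non-CIN-biased (3.40%) and a share that went from 43.0% to 59.4%, and over all common regions, with 1824 (6.57%) and 1538 (5.54%). Of the regions called on all peaks, 737 CIN-biased and 714 non-CIN-biased were called on both scales.

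Replicates agreed in part. Of 2206 regions at least 20 points higher in CINs in replicate 1, 833 (37.8%) were so in replicate 2 and 210 (9.52%) were at least 20 points lower. Of 2939 regions at least 20 points higher in non-CINs in replicate 1, 1262 (42.9%) were so in replicate 2 and 102 (3.47%) went the other way. Across 14153 regions, percentiles had a Spearman correlation of 0.717 within CINs, 0.724 within non-CINs and 0.424 to 0.640 from one population to the other. Regions share peaks, libraries and base composition, so these correlations are descriptive. At the margin, the 72 regions with a lower difference of 20 to 21 points towards CINs had median percentiles of 78.8 and 61.3 in CINs against 52.1 and 33.2 in non-CINs, and the 53 just outside, at 19 to 20 points, had 81.4, 71.3, 54.2 and 46.5. Towards non-CINs, the 109 regions just inside had 45.8, 37.6, 72.8 and 64.1, and the 117 just outside had 44.9, 37.8, 69.5 and 61.6. At the distance limit, the 277 regions centred 10 to 11 kb from a TSS held 13 CIN-biased and 19 non-CIN-biased, and the 266 common regions at 9 to 10 kb held 12 and 31. At the length limit, the 67 regions within 200 bp below it held 0 CIN-biased and 3 non-CIN-biased, and the 46 distal regions within 200 bp above it held 0 and 2.

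**Figure D1:**
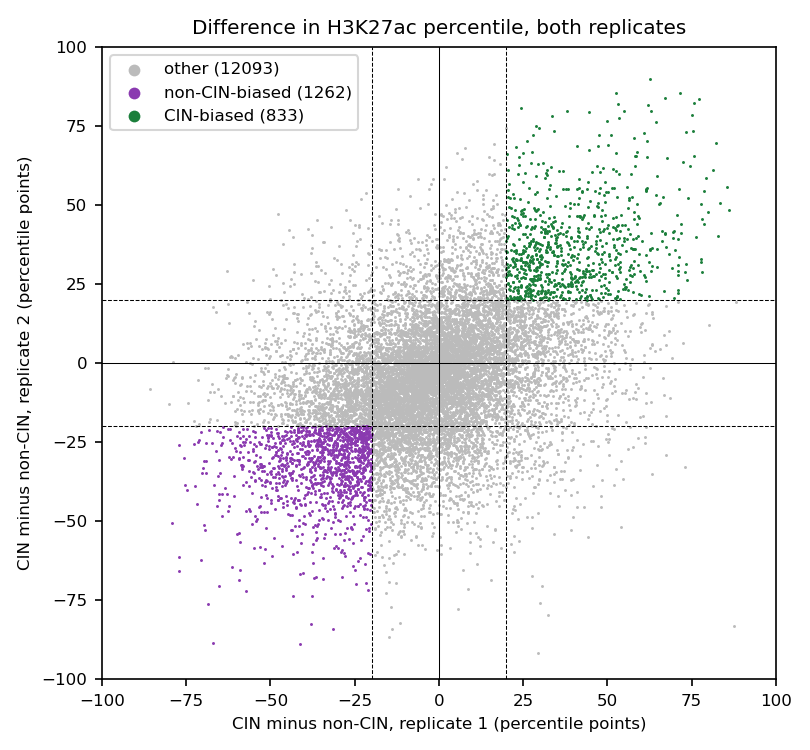
Each point is a common distal region, placed by the difference in H3K27ac percentile (CIN minus non-CIN, percentile points) in replicate 1 (horizontal axis) and replicate 2 (vertical axis); dashed lines mark 20 points in each direction, and the 35 regions with no percentile in some list are not drawn. The 833 CIN-biased regions fill the upper right corner and the 1262 non-CIN-biased regions the lower left, and points beyond 20 points in opposite directions lie in the other corners.

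At most of the regions with the clearest CIN bias, a short stretch was shared between a longer, strong CIN peak and a shorter, weak non-CIN peak. The Bbs10 region lies in an intron of Osbpl8, which encodes a lipid transfer protein, 50.1 kb upstream of Bbs10. It stood at percentiles 98.6 and 93.0 in CINs against 21.5 and 9.5 in non-CINs, from fold enrichments of 7.84 and 8.41 against 3.53 and 3.58. Its 264 bp belonged to peaks of 1350 and 1119 bp on the CIN side and 803 and 318 bp on the non-CIN side. Both CIN values lay far above both non-CIN values, as the choice by largest difference entails. The Foxp2 region lies in an intron of Foxp2, a forkhead transcription factor gene, 216.8 kb downstream of its nearest start, and stood at 92.3 and 87.6 in CINs against 16.6 and 5.4 in non-CINs. Its 437 bp sat in CIN peaks of 3346 and 2987 bp. The Cdca7 region, in an intron of the stress kinase gene Map3k20, was longer, and its non-CIN peak of replicate 1 reached 1563 bp. It stood at 98.2 and 97.8 in CINs against 23.1 and 19.2 in non-CINs. This region also carried H3K27me3 peaks over all of its 1472 bp in CIN replicate 2 and both non-CIN lists, and over 102 bp in CIN replicate 1. The region 151.3 kb downstream of Lnpk, whose product shapes the endoplasmic reticulum, stood at 98.1 and 93.8 against 22.8 and 20.2, and had H3K27me3 over its 461 bp in replicate 2 of each population and in neither replicate 1.

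Another 5 regions chosen for CIN bias were nearest to Fam189a1, Fbln2 (an extracellular matrix fibulin), Prmt8 (a neuronal arginine methyltransferase), Gm26897 and Fam49a. Their percentiles ran from 87.2 to 99.7 in CIN replicate 1 and from 71.4 to 92.6 in CIN replicate 2, against 5.1 to 24.2 and 6.6 to 21 in non-CINs. The populations did not overlap at any of them, which follows from the choice by largest difference. At Prmt8 the peak of CIN replicate 2 was 570 bp long and that of non-CIN replicate 1 longer, at 790 bp. The Gm26897 region met an H3K27me3 peak over its 430 bp in non-CIN replicate 1 alone, and the other 4 met none.

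The regions with the clearest non-CIN bias mirrored this, with a long non-CIN peak over a short CIN peak at most of them. The Grm3 region, in a Grm3 intron, stood at percentiles 24.7 and 21.1 in CINs against 93.2 and 97.5 in non-CINs. Its 186 bp belonged to peaks of 201 and 262 bp on the CIN side and 4450 and 4766 bp on the non-CIN side. The Xylt1 region stood at 11.1 and 1.0 in CINs against 78.2 and 89.7 in non-CINs. Both non-CIN values lay far above both CIN values, which the choice again entails. A pair of regions 151.4 and 155.0 kb upstream of Rgma stood at 1.0 and 23.2, and at 20.7 and 16.7, in CINs. They share their non-CIN peak, of 4495 bp in replicate 1 and 4154 bp in replicate 2, so both had the same non-CIN percentiles of 78.1 and 88.9. The region in an intron of Plpp3, a lipid phosphate phosphatase, lay in non-CIN peaks of 5706 and 9668 bp and stood at 89.3 and 96.0 against 24.0 and 25.5. A region in an intron of the endothelial gene Pecam1, 48.6 kb upstream of Tex2, stood at 6.4 and 19 in CINs against 83.4 and 80.5 in non-CINs. Among starts of any biotype in GENCODE or RefSeq, a Pecam1 start lay 1824 bp from this region. The remaining 4 were in introns of Trib2, Chic2, Vps37b and Grik1, with CIN percentiles of 1.6 to 20.5 and non-CIN percentiles of 67.0 to 89.2. The Vps37b region was likewise 4368 bp from a Vps37b start of any biotype. None of these 10 regions met an H3K27me3 peak in any list.

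Bias also moved with distance and length. From 10 to 25 kb from a TSS, 4.87% of 3307 regions were CIN-biased and 9.43% non-CIN-biased, and beyond 500 kb 6.64% and 6.86% of 437 regions. Of the 1463 regions under 200 bp, 9.16% and 11.3% were biased, against 2.04% and 4.15% of the 4171 regions of 1 kb or more.

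Peak length moved with bias across all biased regions. At CIN-biased regions the strongest overlapping peak had a median length of 1366 and 967 bp in the CIN lists and 640 and 521 bp in the non-CIN lists. At non-CIN-biased regions these were 642 and 612 bp in the CIN lists and 992 and 1076 bp in the others. The percentile of a region is that of the whole overlapping peak, and the fold enrichment within the shared stretch alone was not analysed here. In at least 1 list, 51 CIN-biased regions (6.12%) and 121 non-CIN-biased regions (9.59%) shared their strongest peak with another common region.

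The 6 regions with the highest level in all 4 lists were chosen for that level, which leaves almost no room for a difference. Prrc2b, Anp32e, Ccnl1, Tom1l2 (an endosomal sorting protein), Eif4g2 and Ppp1r12a (a myosin phosphatase subunit) gave percentiles between 99.1 and 100 in every list, and differences of at most 0.7 points in size. Their regions were 1115 to 2996 bp long, and none met an H3K27me3 peak in any of the 4 lists. The Prrc2b region, 1290 bp long, spans joined peaks, of which the strongest was 687 to 715 bp long in each list.

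**Figure D2:**
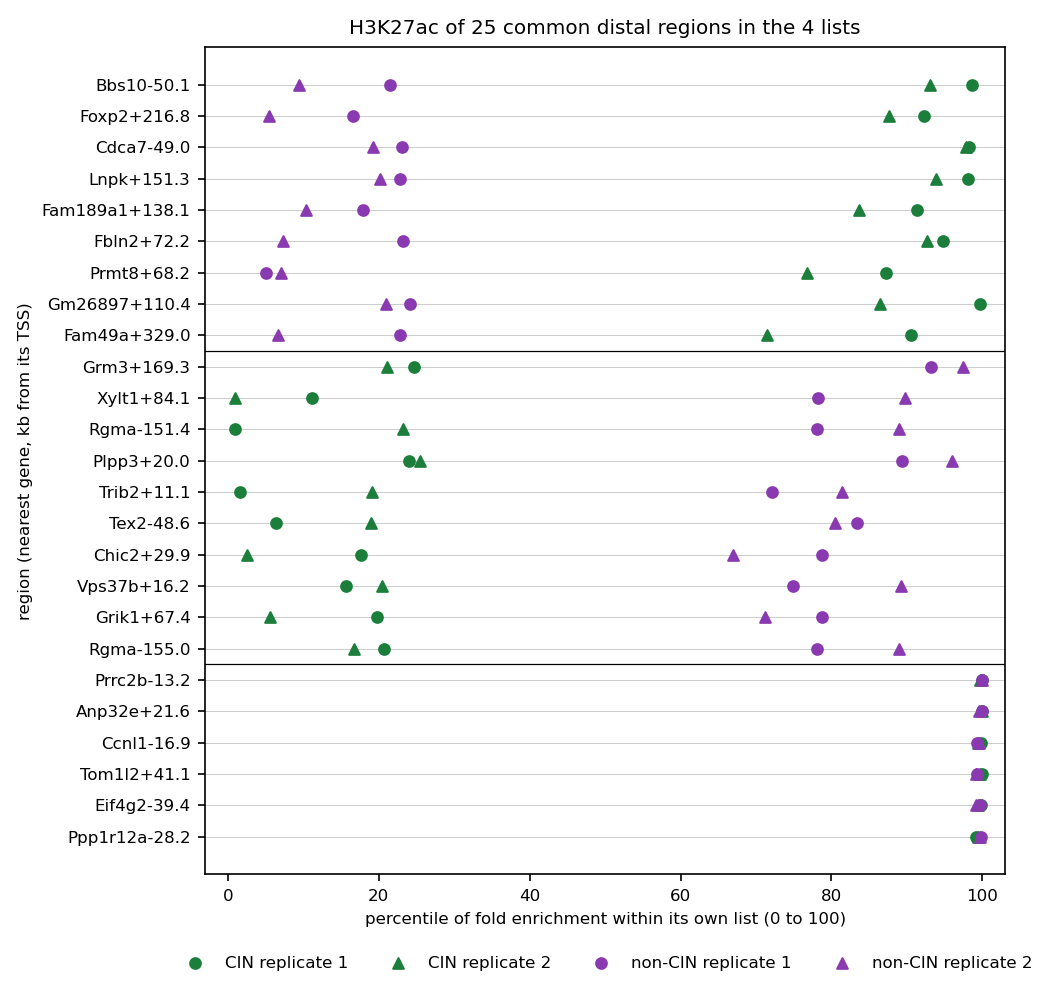
Percentile of fold enrichment within its own list (horizontal axis, 0 to 100) for 25 common distal regions named by nearest gene and signed kb from its TSS, with circles for replicate 1 and triangles for replicate 2, green for CINs and purple for non-CINs; lines separate 9 of the 10 regions with the clearest CIN bias, the 10 with the clearest non-CIN bias and the 6 highest in all lists. The Bbs10 region spans 9.5 to 98.6 and the Grm3 region 21.1 to 97.5, whereas the bottom 6 sit at 99.1 or above in all lists.

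The 14188 regions were nearest to 5302 genes, and 177 genes had 10 or more. Of regions inside a gene, 77.8% were nearest to a TSS of that gene. Nfia, a transcription factor that drives gliogenesis, had the most, with 36 regions, 31 of them in its own body. It had 0 CIN-biased and 4 non-CIN-biased regions, 2 of them called on both scales, and median percentiles of 60.7 and 36.7 in CINs against 66.5 and 60.4 in non-CINs. Zfp608, a zinc finger gene, had 35, Sox9, a transcription factor of radial glia and astrocytes, 28, Xylt1 27, the neural bHLH-PAS factor gene Npas3 26, Sox4, a factor of immature neurons, 26, Celf2, an RNA-binding splicing regulator, 25, and the predicted gene Gm11146 25. Sox9 held biased regions in both directions, 2 towards CINs and 4 towards non-CINs, all between genes, and 2 and 3 of these were called on both scales. The region 264.3 kb downstream of Sox9 stood at 83.4 and 68.9 in CINs against 37.8 and 41.3 in non-CINs, whereas that 358.4 kb downstream stood at 46.8 and 40.5 in CINs against 86.3 and 79.7 in non-CINs. Sox4 had 2 CIN-biased regions and 0 non-CIN-biased. The stronger, which alone was called on both scales, 242.0 kb upstream in an intron of Cdkal1, stood at 91.9 and 74.0 in CINs against 48.2 and 31.3 in non-CINs.

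The genes with most CIN-biased regions had 3 or 4 each, and 5 are described. All 6 regions nearest to Themis3 lay inside the neighbouring gene Ptprm, which encodes a receptor tyrosine phosphatase of cell adhesion, and 4 of them were CIN-biased. These 4 stood at 72.8 to 93.4 in CIN replicate 1 and 61.4 to 84.9 in replicate 2, against 42.8 to 67.1 and 15.8 to 50.7 in non-CINs. Maml3, a co-activator of Notch signalling, had 4 CIN-biased regions of 8, at 68.0 to 96.3 and 47.5 to 82.2 in CINs and 32.1 to 71.9 and 26.7 to 55.6 in non-CINs. Cmpk2, a mitochondrial nucleotide kinase, had 3 of 4 regions CIN-biased, 162.6 to 417.0 kb downstream of its TSS and between genes. The predicted gene Gm9972 had 3 of 4, and Agap1, an Arf GTPase-activating protein of endosomes, 3 of 6. None of these 5 genes had a non-CIN-biased region. Ties among the 9 genes with 3 were settled by the smaller number of regions. Map3k7, one of those left out and chosen here after its values were seen, had 3 CIN-biased and 3 non-CIN-biased regions of 12, with 2 and 1 on the scale of common regions and 1 and 1 called on both scales. On the scale of common regions the counts of CIN-biased regions became 4 for Themis3, 6 for Maml3, 3 for Cmpk2, 2 for Gm9972 and 3 for Agap1.

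The genes with most non-CIN-biased regions had 5 to 8. Xylt1 had 8 of 27, all in its introns, at 6.8 to 40.2 in CIN replicate 1 and 1.0 to 46.3 in replicate 2, against 50.9 to 82.1 and 37.6 to 89.7 in non-CINs. Egln3, an oxygen-sensing prolyl hydroxylase, was nearest to 24 regions with 7 non-CIN-biased, and 5 of these 7 lay in the body of the neighbouring gene Npas3. Ptn, the growth factor pleiotrophin made by radial glia, had 6 of 21. The strongest of these, 206.7 kb upstream in an intron of Dgki, stood at 69.6 and 75.9 in CINs against 94.4 and 97.5 in non-CINs. Tnfrsf19, a TNF receptor family gene of neural progenitors and astrocytes, had 5 of 10. Sema6d, a transmembrane semaphorin, had 5 of 18, all in its introns, beside 2 CIN-biased regions that lay between genes. On the scale of common regions the non-CIN-biased counts were 5 for Xylt1, 5 for Egln3, 7 for Ptn, 3 for Tnfrsf19 and 1 for Sema6d, and Sema6d then had 3 CIN-biased regions, so its balance turned with the scale. The calls made on both scales numbered 5 for Xylt1, 2 for Egln3, 3 for Ptn, 2 for Tnfrsf19 and 1 for Sema6d.

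Gene lists were read by the nearest TSS, beside 5.87% CIN-biased and 8.89% non-CIN-biased over all common distal regions. On the scale of common regions the shares over all distal regions were 8.20% and 7.52%, and list shares on that scale are to be read against these. Regions near the 22 astrocyte and radial glia genes numbered 211 and were the most numerous. Of these, 2 (0.948%) were CIN-biased and 17 (8.06%) non-CIN-biased, and the median differences between CINs and non-CINs were −5.2 and −11.4 percentile points, against −2.7 and −5.5 over all distal regions. On the scale of common regions 6 (2.84%) and 18 (8.53%) were biased, and 2 and 9 were called on both scales. Both CIN-biased regions were those of Sox9. Besides Nfia and Sox9, the genes with most regions were Nfib, another gliogenic factor, with 25 regions and no biased call, and Zbtb20, a hippocampal and astrocytic repressor, with 25 and 1 non-CIN-biased. The Zbtb20 region stood at 15.1 and 15.7 in CINs against 39.8 and 36.3 in non-CINs, and was not called on the scale of common regions, where the differences were −8.0 and −8.4. On that scale other regions were called, 1 CIN-biased and 1 non-CIN-biased at each of Nfib and Zbtb20.

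Pan-neuronal and synaptic genes had 127 regions, of which 15 (11.8%) were CIN-biased and 12 (9.45%) non-CIN-biased, and 19 (15%) and 7 (5.51%) on the scale of common regions, with 14 and 4 called on both. The adhesion genes Ncam1 (12 regions), Nlgn1 (11) and Nrxn3 (11) were among those with most. Nrxn3 had 2 CIN-biased regions and 0 non-CIN-biased, both in its introns, of which the stronger stood at 90.3 and 79.4 in CINs against 32.0 and 13.8 in non-CINs. Ncam1 held 1 of each, 60.3 kb downstream of a start at 67.5 and 56.3 in CINs against 10.4 and 19.9 in non-CINs, and 139.9 kb downstream at 23.9 and 39.2 in CINs against 67.8 and 62.2 in non-CINs. On the scale of common regions the first was called and the second was not, with differences of −32.4 and −19.7. Nlgn1 held 1 CIN-biased and 2 non-CIN-biased regions, of which 1 and 1 were called on both scales.

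Genes of cortical interneurons had lower shares of biased regions in both directions than all common distal regions, on small counts. Only 17 of the 32 genes had a region, and stretches marked in CINs alone are left out by the rule. The list had 130 regions, 6 (4.62%) CIN-biased and 7 (5.38%) non-CIN-biased, with 6 (4.62%) and 5 (3.85%) on the scale of common regions and 6 and 1 called on both. Zeb2, a transcription factor needed to specify and steer CINs, had 25 regions and 2 CIN-biased, both in its introns. That 77.8 kb downstream was 2391 bp long and stood at 93.7 and 88.6 in CINs against 63.6 and 57.6 in non-CINs, and that 49.3 kb downstream at 71.8 and 49.8 against 17.0 and 11.2. Meis2, a TALE homeodomain factor of the ganglionic eminences, had 22 regions and no biased call, with median percentiles of 51.0 and 35.6 in CINs against 52.0 and 53.1 in non-CINs. Sox6, required for maturation of medial ganglionic eminence-derived CINs, had 22 regions with 0 CIN-biased and 3 non-CIN-biased. That with the widest difference in replicate 1, though the narrowest of the 3 in replicate 2, stood at 10.3 and 23.3 in CINs against 69.4 and 47.1 in non-CINs. None of these 3 calls was made on the scale of common regions, where another Sox6 region was called. Nr2f1, an orphan nuclear receptor of caudally derived CINs and of the cortical area map, had 13 regions and 1 biased each way, of which the CIN-biased call alone was made on both scales.

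Pallial projection neuron genes had 93 regions, 5 (5.38%) CIN-biased and 8 (8.60%) non-CIN-biased, with 5 (5.38%) and 9 (9.68%) on the scale of common regions and 4 and 3 called on both. Pou3f3 had 17 regions, Sox5 15, Pou3f2 8 and Mef2c 7. Rorb and Tle4, named here after their values were seen, also had 7. Rorb had 2 non-CIN-biased regions, 1 of them called on both scales, and Mef2c and Tle4 had no biased call. Both non-CIN-biased regions of Sox5, a factor of deep layer projection neurons, lay in its introns. That 11.9 kb upstream stood at 3.5 and 16.6 in CINs against 76.3 and 42.1 in non-CINs, and that 81.5 kb upstream at 12 and 19.6 against 54.1 and 58.5. Neither was non-CIN-biased on the scale of common regions, where the differences were −52.1 and −12.6, and −19.4 and −28.4. Pou3f2 had 1 CIN-biased region, 345.5 kb upstream, at 90.2 and 83.8 in CINs against 63.3 and 61.5 in non-CINs. Migration and axon guidance genes had 142 regions with 8 (5.63%) CIN-biased and 9 (6.34%) non-CIN-biased, and 8 (5.63%) and 7 (4.93%) on the scale of common regions. Cdh2, the neural cadherin, had 23 of these with 1 CIN-biased and 3 non-CIN-biased, Sema6a 16 with 0 and 1, Epha4, an ephrin receptor, 14 with 1 and 1 (neither called on the scale of common regions), and Dab1, the Reelin adaptor, 13 with 0 and 0. The remaining lists were small. Activity-regulated genes had 16 regions with 1 biased each way, and oligodendrocyte lineage genes 20 with 1 CIN-biased and 2 non-CIN-biased. Microglia genes had 10 regions and endothelial and pericyte genes 8, each with 1 biased each way. On the scale of common regions the CIN-biased and non-CIN-biased counts were 0 and 1 for activity-regulated, 2 and 2 for oligodendrocyte lineage, 1 and 0 for microglia and 2 and 0 for endothelial and pericyte genes. Microglia regions fell near Ptprc (9) and P2ry12 (1) alone.

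**Figure D3:**
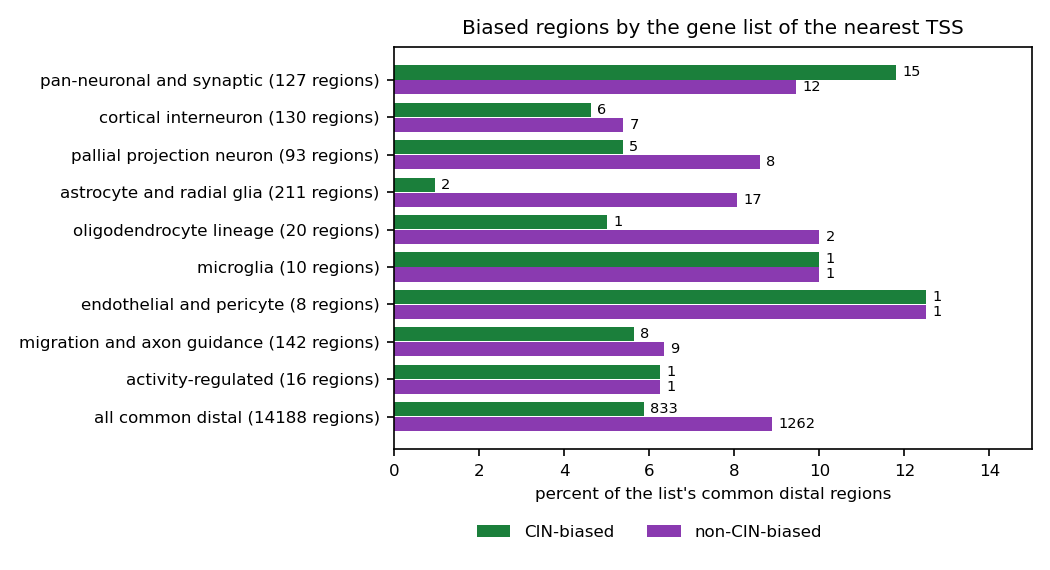
Percent of common distal regions (horizontal axis) that were CIN-biased (green) or non-CIN-biased (purple) for each list of genes by nearest TSS, with the number of regions printed at each bar and all 14188 regions at the bottom. The astrocyte and radial glia list has 2 CIN-biased against 17 non-CIN-biased regions, while the pan-neuronal and synaptic list has 15 against 12.

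A minority of regions stood in clusters. Chaining close neighbours, with gaps of up to 12494 bp inside a chain, gave 715 clusters of 3 or more, with 2741 regions (19.3%), a median of 3 regions and a median span of 15.4 kb. The largest lay in introns of Msi2, an RNA-binding protein of neural progenitors, with 15 regions over 86.8 kb. The difference was below 0 in both replicates at 13 of these 15 regions, and 1 region was non-CIN-biased. A cluster of 12 regions inside Meis2 spanned 76.1 kb with no biased region. A cluster of 12 inside Slc4a4, the sodium bicarbonate cotransporter of astrocytes, had the lowest median differences of the 6 clusters with most regions, −22.3 and −17.8, and 2 non-CIN-biased regions. The clearest of them began 47.10 kb into the cluster, with differences of −41.95 and −43.34. A cluster of 12 at Cxxc5, on chromosome 18, had median differences of 10.6 and 0.8, and a cluster of 10 inside Dscaml1, a neuronal adhesion gene, nearest to Cep164, had 20.7 and 9.2. The cluster of 10 inside Cuedc1 held a single CIN-biased region, 27.67 kb from its start with differences of 61.54 and 26.07, between regions that moved little or the other way.

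**Figure D4:**
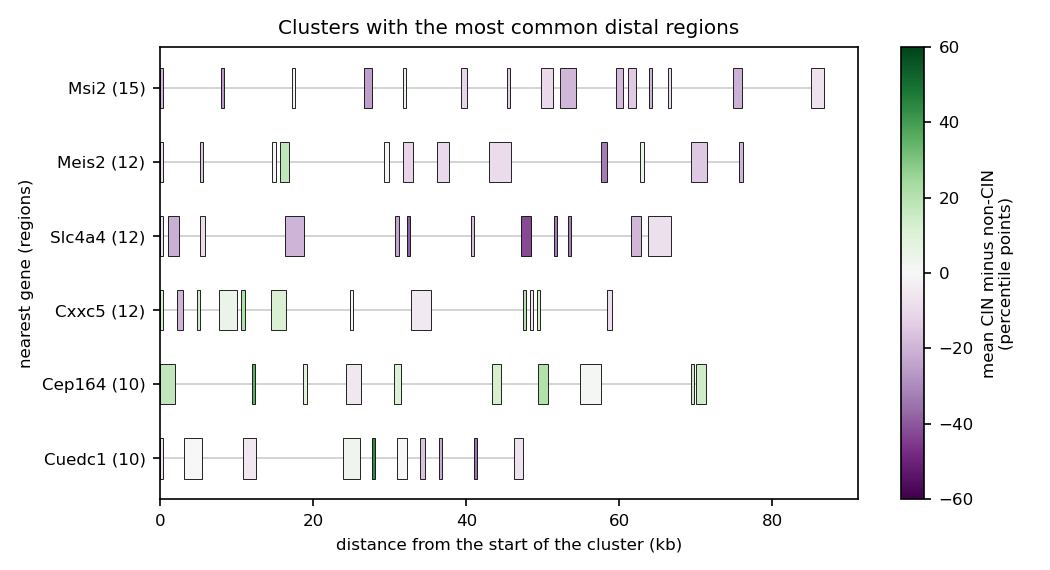
The 6 clusters with most common distal regions, drawn to scale as distance from the cluster start (kb, horizontal axis), with each region a box coloured by its CIN minus non-CIN difference in percentile points averaged over replicates (green higher in CINs, purple higher in non-CINs); boxes under 0.4 kb are drawn at 0.4 kb. Regions of the Slc4a4 cluster are mostly purple, those of the cluster nearest to Cep164 mostly green, and those of the Cuedc1 cluster mixed.

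Of the clusters, 50 held 2 or more non-CIN-biased regions and no CIN-biased one, 9 held 2 or more CIN-biased regions and no non-CIN-biased one, and 15 held both kinds. These numbers were 54, 20 and 13 on the scale of common regions, and with calls made on both scales 25, 7 and 6. Clusters with 3 non-CIN-biased regions, named here after their values were seen, included those in or beside Lrig1, Irs2, Ptn, Cdh2, Trim9, Mapk4, Tnfrsf19 and Plpp3. All 3 calls were made on both scales at Lrig1, Irs2, Cdh2 and Trim9, 2 at Tnfrsf19 and Plpp3, 1 at Mapk4 and 0 at Ptn. Clusters with 2 CIN-biased regions, chosen likewise, included those in Srgap2, a regulator of neuronal migration and spine maturation, and beside Arl4d, a small GTPase gene, where the cluster of 3 regions had median percentiles of 86.9 and 66.7 in CINs against 50.1 and 26.4 in non-CINs. Both Arl4d calls and neither Srgap2 call were made on both scales. Surroundings followed the bias of a region. A region with H3K27ac in CINs alone lay within 10 kb of 9.36% of CIN-biased regions, 3.17% of non-CIN-biased regions and 4.99% of the others, and a region with H3K27ac in non-CINs alone lay within 10 kb of 1.92%, 11.7% and 6.89%. These shares rest on the same 4 lists as the bias and are not independent of it.

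Sequence was not used to choose the regions. In the 200 bp around the centre, TAATTA, the core bound by DLX, LHX and other homeodomain factors, was found (both strands read) in 7.56% of CIN-biased regions (95% Wilson interval 5.96 to 9.56), 4.60% of non-CIN-biased regions (3.57 to 5.90) and 5.98% of the other distal regions (5.57 to 6.42), against 3.98% of all common regions. CTTTGT, a SOX core, was found in 30% (27 to 33.2), 23.1% (20.9 to 25.5) and 23.9% (23.1 to 24.6), against 18.7% of all common regions. TGANTCA, the AP-1 site, ran the other way, with 4.92% (3.65 to 6.61) of CIN-biased, 7.69% (6.34 to 9.29) of non-CIN-biased and 6.18% of other regions, against 4.80% of all common regions. The intervals of CIN-biased and non-CIN-biased regions do not overlap for TAATTA and CTTTGT, and overlap for TGANTCA. For TAATTA both overlap that of the other distal regions, whereas for CTTTGT that of CIN-biased regions does not. Regions share peaks and libraries, so the intervals are a description and not a test. In whole regions, whose lengths differ, TAATTA was found in 17.9% and 12.9% of CIN-biased and non-CIN-biased regions and CTTTGT in 49.2% and 44.2%, below the 20.8% and 55.8% of the other, longer distal regions. For CTGTCA (MEIS), the NEUROD and NEUROG E-box CAGATGG, ATGCAAAT (POU), TTGGCA (NFI), AGGTGTGA (T-box), AGGNGGC (CTCF core), TGACGTCA and GCGTGGGCG (EGR), the intervals of the 2 biased groups overlapped. So did those of GGGCGG, found in 4.56% (3.34 to 6.20) and 2.61% (1.87 to 3.65), against 18.8% of all common regions and 34.0% of common regions within 10 kb of a TSS. Matches of AGGNGGC and GGGCGG can overlap, as can those of CTGTCA and CAGATGG, the latter seen at Cdca7. A match is a run of letters and not a bound site.

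**Figure D5:**
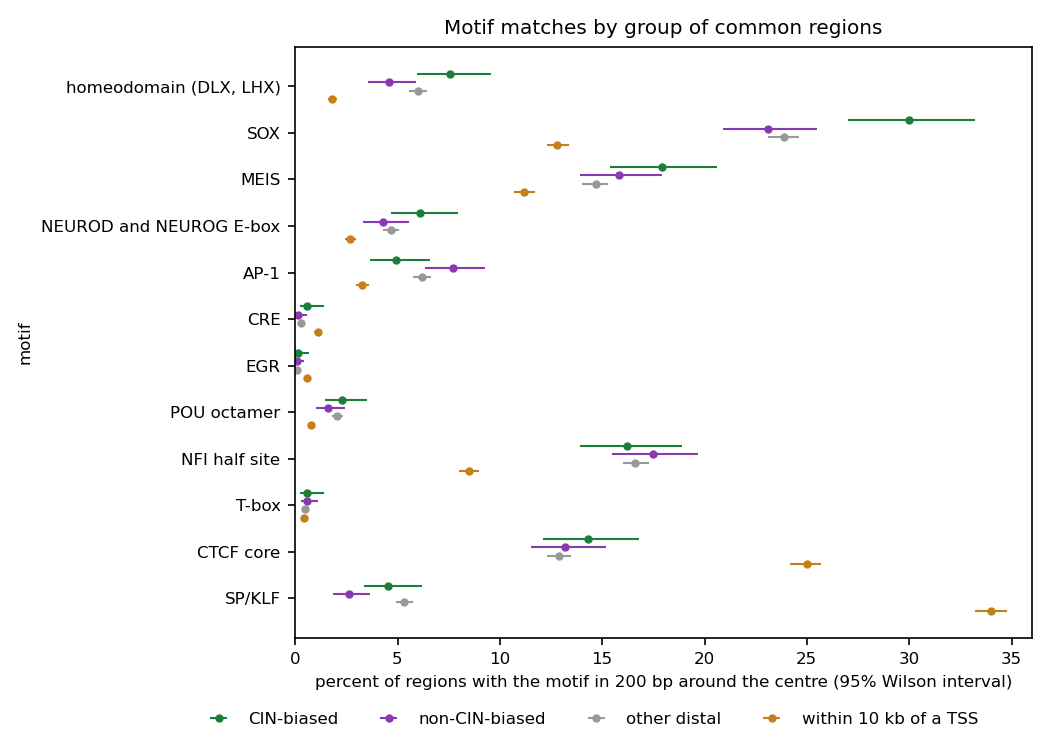
Percent of regions whose central 200 bp hold each motif, read on both strands (horizontal axis), with 95% Wilson intervals, for CIN-biased (green), non-CIN-biased (purple) and other common distal regions (grey) and for common regions within 10 kb of a TSS (orange). The SOX motif reaches 30% in CIN-biased regions, and SP/KLF is found in 34.0% of regions near a TSS but in 4.56% and 2.61% of the biased groups.

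H3K27me3 was rare at common distal regions. An H3K27me3 peak overlapped 89 of 14188 regions in CIN replicate 1 (0.627%), 218 in CIN replicate 2 (1.54%), 107 in non-CIN replicate 1 (0.754%) and 207 in non-CIN replicate 2 (1.46%). The replicates differed more than the populations: the mean was 1.08% ± 0.643 (SD, n = 2) in CINs and 1.11% ± 0.498 (SD, n = 2) in non-CINs, a difference of −0.025 percentage points (exact permutation test over lists, two-sided, p = 1, where 0.33 is the smallest p that 2 lists against 2 can give). Common regions within 10 kb of a TSS were overlapped more often in each of the 4 lists, in 3.16%, 4.29%, 3.51% and 3.02%. The mean over lists was 1.09% ± 0.470 (SD, n = 4) at distal regions and 3.50% ± 0.569 (SD, n = 4) near a TSS, a difference of −2.40 percentage points (exact sign-flip permutation test, two-sided, p = 0.13, the smallest that 4 lists can give). It shrank to −0.77 when 50% of the region had to be covered and to −1.37 with H3K27me3 peaks of −log10 q 4 or more. Regions near a TSS were also longer, with a median of 1042.5 bp against 616 bp and no upper limit on length, and the part of length in the difference was not tested. CIN-biased regions were overlapped in 0.960% and 2.64% of cases in the CIN lists and 2.28% and 3.72% in non-CINs, and non-CIN-biased regions in 0.872% and 1.43% of cases in the CIN lists and 0.475% and 0.792% in non-CINs. In each replicate, H3K27me3 overlap was thus higher in the population with the lower H3K27ac, on counts of 6 to 31 regions per list and with no test.

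Only 50 common distal regions carried H3K27me3 in all 4 lists. They include, chosen here after their values were seen, 3 regions 180.5 to 192.2 kb downstream of Pdgfra, the receptor of oligodendrocyte precursors, and a region 10.4 kb downstream of Nr2f2 whose 1186 bp were covered in every list and which stood at 62.5 and 58.8 in CINs against 43.4 and 64.3 in non-CINs. A region at chr17:39847448-39848829, nearest to Esp38, was covered by H3K27me3 over its 1382 bp in all 4 lists and stood at 98.0 and 98.1 in CINs against 96.7 and 96.7 in non-CINs for H3K27ac. Its CpG ratio was 1.01, and it overlaps CT010467.1, which GENCODE annotates as ribosomal RNA. Ribosomal DNA is repeated in the genome, and whether reads of other copies were placed here was not tested, so these values may not describe this locus.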

How the data were processed

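The deposited files are broad peak lists, 1 per library, for H3K27ac and H3K27me3. Per the study's methods, the authors mapped reads with BWA (genome build mm10), kept mapping quality 30 or more, and called peaks per replicate against matched input with MACS2 in broad mode at a q cutoff of 0.01. Each deposited peak carries a score, a fold enrichment (ratio) over input, a −log10 p and a −log10 q; the fold was used for levels. The H3K27ac lists hold 62505 and 46310 peaks in CINs and 59667 and 46040 in non-CINs, with a lowest fold of 2.94 to 3.32. The lists carry no read depth, so the depth behind each value is unknown. The replicate 1 H3K27ac lists hold more peaks and reach lower folds than the replicate 2 lists.

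TSSs were those of protein-coding transcripts in GENCODE vM21 basic (mm10), and genes are named by nearest TSS. The members and gene lists were chosen with earlier results of these data known. Named were the 10 regions per direction with the largest lower difference of the 2 replicates, the 6 with the highest lowest percentile, the 6 clusters with most regions, the 8 genes with most regions, the 5 with most CIN-biased and non-CIN-biased regions, and up to 4 genes per list. Ties of genes in the number of regions, as among those with 25, were settled by alphabetical order. Populations were compared within replicate numbers, which the labels give; whether equal numbers share litters is not given in the sources used here, and the Pearson correlation of replicate deviations between populations was 0.225 over 14153 regions. H3K27me3 was tested by exact permutation over lists, and replicates are separate samples. The overlap steps were tested on simulated regions. Python 3.11.15, NumPy 2.4.6, SciPy 1.17.1, pandas 2.3.3, matplotlib 3.10.9 and bedtools 2.31.1 were used. Alternatives covered merging, limits, annotation, scale, replicates and peak threshold. Sequences from chromosome 18 are not shown, and 1 region, 1 gene and 1 sequence that the naming rule gives are not reported here.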

Additional observations from a re-analysis of the deposited data

How the results depend on the processing

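With regions formed anew from peaks of −log10 q 4 or more, 7952 common distal regions were found, 582 CIN-biased and 795 non-CIN-biased. With either replicate left out of the search for common regions, 16368 to 21365 regions were found. Among the 14188 regions themselves, 1647 to 2206 were CIN-biased and 2939 to 3106 non-CIN-biased when the margin had to be met in 1 replicate alone. A margin of 10 points gave 1736 and 3069, of 30 points 372 and 412, and any difference 3572 and 6082. Without the replicate block, when every CIN list had to exceed every non-CIN list by 20 points, 495 and 803 were called, and with the crossed pairing 616 and 1083. Ranking among common regions gave 1164 and 1067, the only alternative run for both counts in which CIN-biased regions were the more numerous. Gaps of 5 and 25 kb gave 315 and 1095 clusters. The CIN minus non-CIN difference in H3K27me3 overlap was 0.021 percentage points when 50% of the region had to be covered (exact permutation p = 1), −0.236 with H3K27me3 peaks of −log10 q 4 or more (p = 0.667), and −0.127 to 0.078 with 1 replicate left out. With the replicate block the difference was −0.025 (exact sign-flip permutation of the differences within replicates, p = 1). The distal minus near-TSS difference in overlap, −2.40 points, shrank to −0.77 with 50% coverage and to −1.37 with −log10 q of 4 or more, and was −2.65 to −2.16 with 1 replicate left out. Alternatives chosen after seeing the data were the full GENCODE annotation (13509 regions), RefSeq starts (13361), the strongest 40000 peaks per list (10008), leaving out regions within 1 kb of any TSS (708 CIN-biased, 1153 non-CIN-biased) and counting clusters by direction on the scale of common regions. Assigning regions by gene body first kept 25 of 27 gene list counts within 1.5 times. In whole regions, 8 of 12 motifs kept the order of the biased groups. The lists give no depth, so regions missed for lack of reads cannot be told apart from unmarked ones.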
